A study of Mus musculus with 4 samples.

Results

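Matrix metalloproteinases (MMP), ADAMTS proteases and their tissue inhibitors (TIMP) were followed in mouse mesenchymal stem cell lines with and without raised NR6A1. The genes were taken by symbol from the deposited table, in which all 43 listed members were found among 21881 gene symbols: 20 MMP, 19 ADAMTS and 4 TIMP genes. Messenger RNA had been sequenced from 4 libraries. In the NR6A1 group, clone 12 and clone 6 carried a puromycin-resistant retrovirus for Flag-HA-tagged NR6A1, a nuclear receptor without a known ligand that is best known from embryos and germ cells (n = 2). In the vector group, the same clones carried the empty retrovirus (n = 2). Both clones are immortalised monoclonal fibroblast-like lines from adult bone marrow of C57BL/6 mice, and both carry Dicer f/f alleles, labelled wild type for Dicer function. Each line is 1 clone, and no repeat cultures are named. For NR6A1 against vector, p-values thus measure how alike the lines differed. Between the clones, they measure how alike the gap was with either virus. Neither measures the spread between repeat cultures. The viral backbone is called pMMP-puro, a plasmid name with no link to the metalloproteinases.

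Nr6a1 was at 598 and 783 FPKM in the NR6A1 libraries of clone 12 and clone 6, against 2.80 and 4.18 FPKM in the vector libraries (log2 change 7.27 ± 0.07 SE, limma adjusted p = 0.000488). FPKM scales sequenced fragments to transcript length and library size, so levels of different genes can be set side by side per length. The steps between low values implied that 1 FPKM, for a gene 2000 bases long, came from 36.6 to 43.3 reads per library. In bulk RNA, fewer cells of a type and less RNA per cell cannot be told apart. Of 10 mesenchymal markers, 9 had a mean of at least 1 FPKM; the exception was Thy1, at 0.0297 FPKM or less. Ly6a, the Sca-1 gene among them, was at 125 and 9.31 FPKM with NR6A1, against 317 and 19.0 FPKM with vector. Its log2 change with NR6A1 was -1.14 (limma adjusted p = 0.169, or 0.0304 with short RNA genes left out of the fit). Its log2 difference for clone 12 against clone 6 was 3.80 (limma adjusted p = 0.00362). All 6 endothelial markers were at 0.141 FPKM or less, and the leukocyte gene Ptprc at 0.0234 or less, while Cd14 reached 8.35 FPKM among the macrophage and blood markers.

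MMPs are zinc proteases that cut collagens, gelatins and other matrix proteins. Some are secreted and some are held at the membrane, and most are made as inactive precursors. ADAMTS proteases are secreted relatives with thrombospondin repeats; the aggrecanases among them cut aggrecan and versican, and the procollagen N-proteinases trim new fibrillar collagen. TIMPs block the active sites of these enzymes, TIMP3 with the widest reach over ADAM and ADAMTS proteases. In bone marrow stroma and bone, MMP14, MMP2 and MMP13 are known for collagen turnover, and the membrane protease MMP14 activates the MMP2 precursor with the help of TIMP2.

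Of the 43 genes, 20 reached a mean of 1 FPKM over the 4 libraries: 8 MMP, 9 ADAMTS and 3 TIMP genes. This is 46.5% of the members, beside 51.9% of all genes in the table. By mean over the libraries, Timp1 (168 FPKM), Timp2 (125) and Mmp14 (110.0) were the highest; Timp1 and Timp2 were above Mmp14 in clone 12 and below it in clone 6. Timp1 was at 215 and 116 FPKM in the NR6A1 libraries of clone 12 and clone 6, against 231 and 112 FPKM in the vector libraries. Timp2 was at 124 and 117 FPKM with NR6A1, against 148 and 111 FPKM with vector. Both were above 100 FPKM in every library, and both Timp1 values of clone 12 were above both of clone 6. Timp4, which is mainly a heart and fat inhibitor, was at 0.163 FPKM or less.

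Among the proteases Mmp14, the main membrane-type collagenase, was the highest in every library. It was at 66.2 and 154 FPKM in the NR6A1 libraries of clone 12 and clone 6, against 63.6 and 156 FPKM in the vector libraries. Next by mean over the libraries came Adamts1, a protease of aggrecan and versican (22.4 FPKM), the membrane-anchored protease gene Mmp23 (20.03), the stromelysin-3 gene Mmp11 (16.6), the collagenase gene Mmp13 (15.3), the procollagen N-proteinase gene Adamts2 (11.5), the aggrecanase gene Adamts5 (9.75) and the gelatinase gene Mmp2 (8.84). Below these stood the aggrecanase gene Adamts4 (6.40), Mmp19 (6.01), Adamts10, whose product binds fibrillin microfibrils (5.49), the procollagen N-proteinase gene Adamts14 (3.22), Adamts9, a protease of versican and aggrecan (2.33), the epilysin gene Mmp28 (1.71), Adamts6, a close relative of Adamts10 (1.65), the membrane-type protease gene Mmp16 (1.35) and Adamts12, whose product cuts the cartilage protein COMP (1.34). Neighbours in this order often overlapped: Mmp11, Mmp13 and Mmp23 ranged over 13.1 to 20.1, 9.36 to 30.4 and 6.23 to 42.0 FPKM across the libraries.

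**Figure D1:**
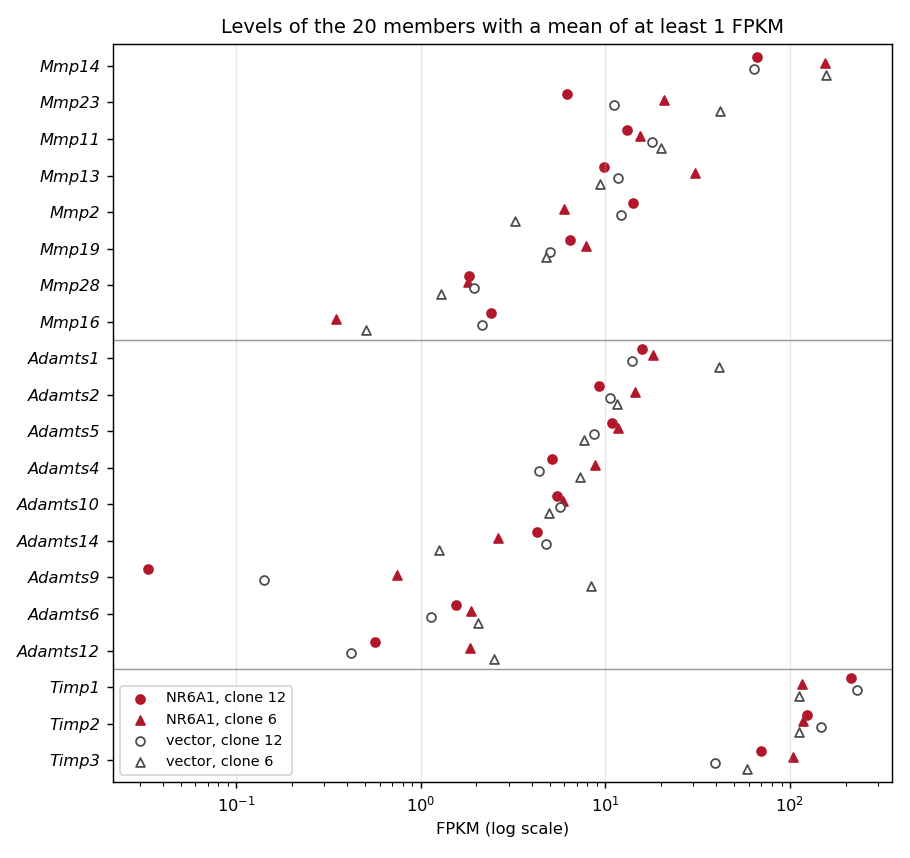
FPKM on a log axis for the 20 members with a mean of at least 1 FPKM, 1 point per library (filled, NR6A1; open, vector; circles, clone 12; triangles, clone 6), grouped as MMP, ADAMTS and TIMP genes. Timp1 and Timp2 sit above 100 FPKM in every library, while Adamts9 spans 0.0333 to 8.39 FPKM.

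Summed over each family, the balance of inhibitors and proteases differed mainly between the clones. TIMP genes summed to 409 FPKM in clone 12 and 336 FPKM in clone 6 with NR6A1, against 419 and 282 FPKM with vector. MMP genes summed to 121 and 238 FPKM with NR6A1 in clone 12 and clone 6, against 126 and 238 FPKM with vector. ADAMTS genes added 53.4 and 67.3 FPKM with NR6A1, against 50.2 and 88.1 FPKM with vector. The summed inhibitor level was therefore 2.34 (NR6A1) and 2.37 (vector) times that of the proteases in clone 12, and 1.10 (NR6A1) and 0.865 (vector) times in clone 6. Mmp14 alone made up 54.6% and 64.7% of the MMP sum in the NR6A1 libraries of clone 12 and clone 6, against 50.3% and 65.5% in the vector libraries. Timp3 made up 17.0% and 30.8% of the TIMP sum with NR6A1, against 9.43% and 20.7% with vector. These sums are descriptions of 4 libraries and were not tested.

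**Figure D2:**
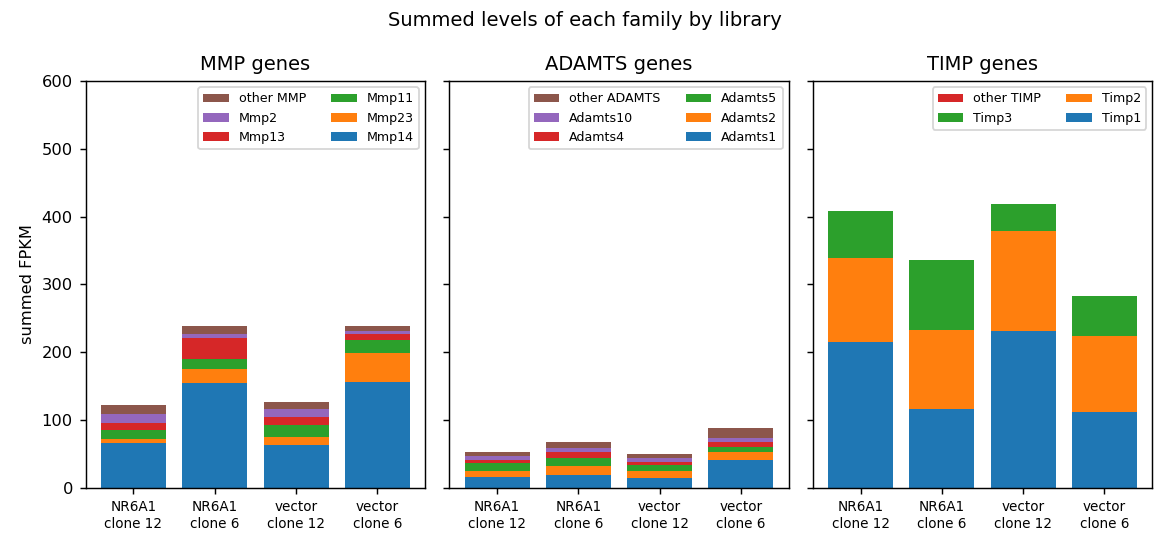
Summed FPKM of the MMP, ADAMTS and TIMP genes in each library, stacked by gene on an axis from 0. Clone 6 has the taller MMP bars (238 FPKM with either virus, beside 121 and 126 in clone 12) and clone 12 the taller TIMP bars (409 and 419 FPKM, beside 336 and 282 in clone 6).

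The other 23 members stayed below the filter. Listed at 0 in all 4 libraries were 5 of them: the matrilysin gene Mmp7, the stromelysin gene Mmp10, the macrophage elastase gene Mmp12, the enamel protease gene Mmp20 and Adamts13, which encodes the liver protease of von Willebrand factor. A value of 0 in this table can also be a failed estimate. A further 8 were under 0.1 FPKM throughout, which is 3.66 to 4.33 reads for a gene of 2000 bases. The remaining 10 reached 0.1 FPKM in at least 1 library. The 5 with the highest single value were Mmp15, Adamts3, Mmp17, Adamts18 and Mmp9. Mmp15, a membrane-type protease gene, was at 0.280 and 0.860 FPKM in the NR6A1 libraries of clone 12 and clone 6, against 0.0533 and 0.413 FPKM in the vector libraries. Adamts3, a procollagen N-proteinase gene, was at 0.145 and 0.615 FPKM with NR6A1, against 0.0707 and 0.129 FPKM with vector. Both were higher with NR6A1 in each clone. Mmp17 was at 0.355 and 0.446 FPKM with NR6A1, against 0.331 and 0.412 FPKM with vector. Adamts18 was at 0.00839 and 0.222 FPKM with NR6A1, against 0.0104 and 0.372 FPKM with vector, so both clone 6 values were above both clone 12 values. The gelatinase gene Mmp9 was at 0.117 and 0.0161 FPKM with NR6A1, against 0.326 and 0.0426 FPKM with vector. No test was run on these genes.

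Of the 20 MMP genes, 7 lie side by side on chromosome 9 in the order Mmp13, Mmp12, Mmp3, Mmp10, Mmp8, Mmp20 and Mmp7, with 3 further MMP genes between them. Collagenase and stromelysin genes of this cluster, such as Mmp13 and Mmp3, are classic targets of AP-1, the Fos and Jun dimer. In these lines Mmp13 was at 9.87 and 30.4 FPKM in the NR6A1 libraries of clone 12 and clone 6, against 11.7 and 9.36 FPKM in the vector libraries. The next highest member of the cluster was Mmp3, a stromelysin gene, at 0.322 and 0.0591 FPKM with NR6A1, against 0.0816 and 0 FPKM with vector. The neutrophil collagenase gene Mmp8 reached 0.0108 FPKM, and the other 4 were listed at 0. AP-1 genes themselves ranged widely in level. Junb, the highest, was at 183 and 86.1 FPKM with NR6A1 against 186 and 91.1 FPKM with vector. Jund was at 61.0 and 63.6 FPKM against 56.0 and 61.9, and Fosl1 at 67.9 and 51.3 against 81.9 and 35.0. Fos was lower, at 2.34 to 8.98 FPKM, and Fosb stayed below the filter, at 0.401 to 0.544 FPKM. Their part in the Mmp13 values was not tested.

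Promoter windows from RefSeq (build GRCm38.p6, 250 bases before to 50 after an annotated start) were found for 29 of the 43 members, among them all 7 genes of the cluster. The AP-1 motif TGACTCA, on either strand, lay in 5 of the 7 cluster windows (Mmp13, Mmp12, Mmp3, Mmp10 and Mmp7) and in none of the other 22 members' windows. It is in 5.95% of the 27025 genes with a window. The letters TATAAA on the gene's own strand lay in 6 of the 7, in 2 of the other 22 (Adamts1 and Mmp21) and in 9.77% of genes. The GC box GGGCGG, on either strand, lay in none of the 7, in 18 of the other 22 and in 38.2% of genes. Among the 29 members with a window, the AP-1 letters thus lay only in the cluster and the GC box only outside it. The TATA letters lay in both, and some windows held none of these motifs. Only 1 of the 5 cluster genes with the AP-1 letters had a mean above 1 FPKM. The NR6A1 element, a direct repeat of AGGTCA with no spacer, and its extended single site TCAAGGTCA were searched on both strands. They were in no window of the 29 members and in 0.0037% and 0.466% of genes. The longer element contains the shorter. A match or its absence describes these letters in these windows and says nothing of binding.

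The windows of 4 genes show the contrast, those of Mmp13 and Mmp3 from the cluster and those of Timp3 and Mmp23, the members called for NR6A1 against vector without short RNA genes. All read 5′ to 3′ on the gene's strand in build GRCm38.p6: Mmp13 at chr9:7272264-7272563 (plus strand), Mmp3 at chr9:7445572-7445871 (plus), Timp3 at chr10:86300162-86300461 (plus) and the downstream of the 2 annotated starts of Mmp23 at chr4:155653241-155653540 (minus). Capitals mark the AP-1 letters (opposite strand in Mmp3) and TATA letters in Mmp13 and Mmp3, and the GC boxes, on the opposite strand, in Timp3 and Mmp23.
Mmp13: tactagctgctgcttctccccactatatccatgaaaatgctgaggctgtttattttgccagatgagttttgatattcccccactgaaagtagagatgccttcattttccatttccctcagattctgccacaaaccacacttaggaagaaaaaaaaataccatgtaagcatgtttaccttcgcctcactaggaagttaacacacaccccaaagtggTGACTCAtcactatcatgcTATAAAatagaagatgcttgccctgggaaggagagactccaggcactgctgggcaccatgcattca
Mmp3: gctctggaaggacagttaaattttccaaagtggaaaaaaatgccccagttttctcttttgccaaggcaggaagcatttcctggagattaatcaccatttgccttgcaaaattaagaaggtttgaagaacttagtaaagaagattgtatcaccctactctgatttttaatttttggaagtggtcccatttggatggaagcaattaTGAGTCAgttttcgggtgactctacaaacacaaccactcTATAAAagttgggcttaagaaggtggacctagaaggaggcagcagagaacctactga
Timp3: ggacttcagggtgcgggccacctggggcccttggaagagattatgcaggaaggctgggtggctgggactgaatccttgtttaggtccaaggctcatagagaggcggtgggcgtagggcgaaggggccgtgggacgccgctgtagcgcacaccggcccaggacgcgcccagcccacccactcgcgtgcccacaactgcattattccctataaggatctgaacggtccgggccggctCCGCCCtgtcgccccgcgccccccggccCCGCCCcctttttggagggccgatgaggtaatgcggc
Mmp23: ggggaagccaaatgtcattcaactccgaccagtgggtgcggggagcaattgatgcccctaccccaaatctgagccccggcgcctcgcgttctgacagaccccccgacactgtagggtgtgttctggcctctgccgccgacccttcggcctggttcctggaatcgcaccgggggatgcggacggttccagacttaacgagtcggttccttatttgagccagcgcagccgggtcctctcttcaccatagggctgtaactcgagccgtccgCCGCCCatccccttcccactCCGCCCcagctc

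The AP-1 letters begin 35 bases before the start of Mmp13 and 46 before that of Mmp3, and the TATA letters follow at 16 and 7 bases before the start. In Timp3 the GC boxes begin 15 bases before and 14 bases after the start, and in Mmp23 they begin at bases 19 and 39 of the transcript. The window at the other annotated start of Mmp23 held none of the searched motifs.

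**Figure D3:**
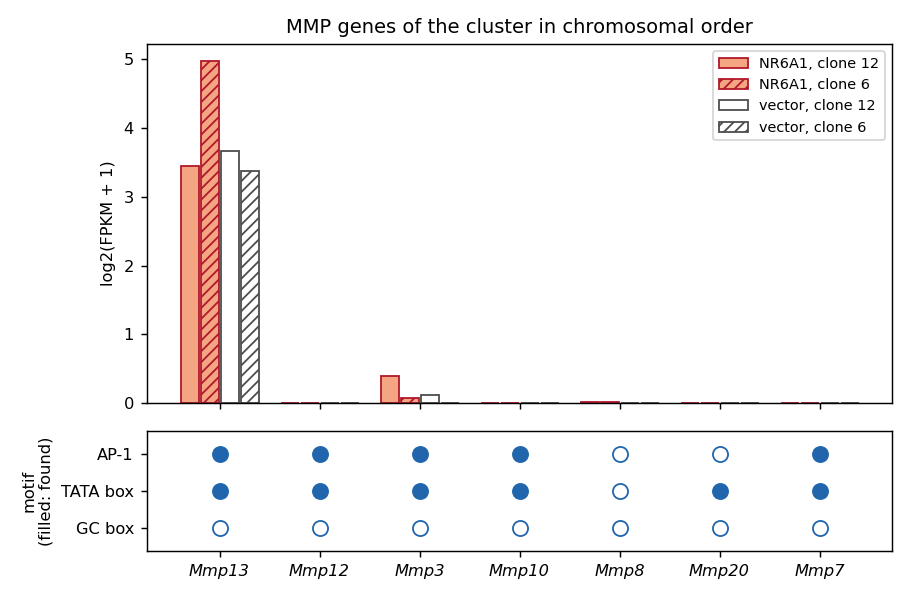
Top, log2(FPKM + 1) of the 7 member genes of the chromosome 9 cluster in chromosomal order, 4 bars per gene (filled, NR6A1; open, vector; hatched, clone 6). Bottom, filled circles where the promoter window holds the AP-1, TATA or GC box letters. Mmp13 is at 9.36 FPKM or more in every library and the other 6 genes at 0.322 or less, although 4 of those 6 also hold the AP-1 letters.

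The first comparison asked how these genes differ when NR6A1 is raised. Timp3 was 1.76-fold higher with NR6A1 in clone 12 and 1.77-fold higher in clone 6. Mmp23 was lower with NR6A1, at 0.561 times the vector level in clone 12 and 0.494 times in clone 6. Over all genes tested none of the 20 members passed the threshold, a limma adjusted p under 0.05 over 11346 genes, which 0.0353% of genes passed. Without 196 short RNA genes (small nuclear, nucleolar, micro and like RNAs, found by symbol) 2 members passed, Timp3 (higher) and Mmp23 (lower), beside 0.457% of genes. At an unadjusted p under 0.05 stood 6 of the 20 members, beside 8.48% of genes: Timp3, Mmp2, Mmp19 and Adamts5 were higher, and Mmp23 and Mmp11 lower.

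Counted by direction, 5 of the 20 members were higher with NR6A1 in both clones, beside 28.9% of all genes tested, and 3 were lower in both, beside 29.4%. The other 12 went in opposite directions in the clones, beside 41.1% of genes. The median log2 change of the members was 0.07, or 0.0016 in clone 12 and 0.14 in clone 6, beside 0.0010 over all genes tested. The families had medians of 0.07 (8 MMP genes), 0.08 (9 ADAMTS genes) and -0.03 (3 TIMP genes). Fold changes on the log2 scale are of log2(FPKM + 1) and understate the change of low genes. The difference in clone 6 was larger in size than that in clone 12 for 15 of the 20 members and for 6948 of the 11346 genes tested.

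Of the inhibitors, Timp3 was at 69.7 and 104 FPKM in the NR6A1 libraries of clone 12 and clone 6, against 39.5 and 58.5 FPKM in the vector libraries. Every NR6A1 library was thus above every vector library, a separation whose share over all genes tested was not counted. The log2 change was 0.81 ± 0.07 (SE), with 0.80 in clone 12 and 0.81 in clone 6. Its limma adjusted p was 0.142 over all genes tested, 0.0304 without short RNA genes and 0.0379 with a robust prior; over all alternatives it ranged up to 1, with no replicate block or with 1 library left out. Timp3 overlaps exons of the synapsin gene Syn3 on the opposite strand, which was at 0.302 to 0.362 FPKM. For Timp1 the log2 change was -0.03 (95% interval -0.25 to 0.19), and for Timp2 it was -0.09 (-0.39 to 0.21). Both genes went in opposite directions in the clones.

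Mmp23, a protease that lacks the usual cysteine switch, was at 6.23 and 20.8 FPKM in the NR6A1 libraries of clone 12 and clone 6, against 11.1 and 42.0 FPKM in the vector libraries. The groups overlapped, and within each clone the NR6A1 library was the lower. Its log2 change was -0.86 ± 0.10 (SE), -0.74 in clone 12 and -0.98 in clone 6, with a limma adjusted p of 0.201 over all genes and 0.0491 without short RNA genes (up to 1 over the alternatives). Without the vector library of clone 6, in a fit with no clone term, the change was 0.052. Mmp11, a protease of stroma around tumours and in remodelling tissue, was at 13.1 and 15.4 FPKM with NR6A1, against 17.997 and 20.1 FPKM with vector, with no overlap between the groups (log2 change -0.40 ± 0.08, adjusted p = 0.359).

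On the higher side, Mmp2 was at 14.0 and 5.97 FPKM in the NR6A1 libraries of clone 12 and clone 6, against 12.1 and 3.25 FPKM in the vector libraries (log2 change 0.46 ± 0.16, limma adjusted p = 0.582). Mmp19, a basement membrane protease, was at 6.47 and 7.82 FPKM with NR6A1, against 4.98 and 4.76 FPKM with vector (0.47 ± 0.12, adjusted p = 0.495). Adamts5, the main aggrecanase of mouse cartilage, was at 10.9 and 11.7 FPKM with NR6A1, against 8.68 and 7.70 FPKM with vector (0.42 ± 0.10, adjusted p = 0.467). For Mmp19 and Adamts5 both NR6A1 libraries were above both vector libraries, and for Mmp2 the groups overlapped. As for Timp3 and Mmp11, the share of all genes tested that separate in this way was not counted. Adamts4, the other aggrecanase of the pair, was at 5.16 and 8.77 FPKM with NR6A1, against 4.40 and 7.30 FPKM with vector (0.21 ± 0.10). Mmp14 had a log2 change of 0.02 with a 95% interval of -0.18 to 0.22.

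**Figure D4:**
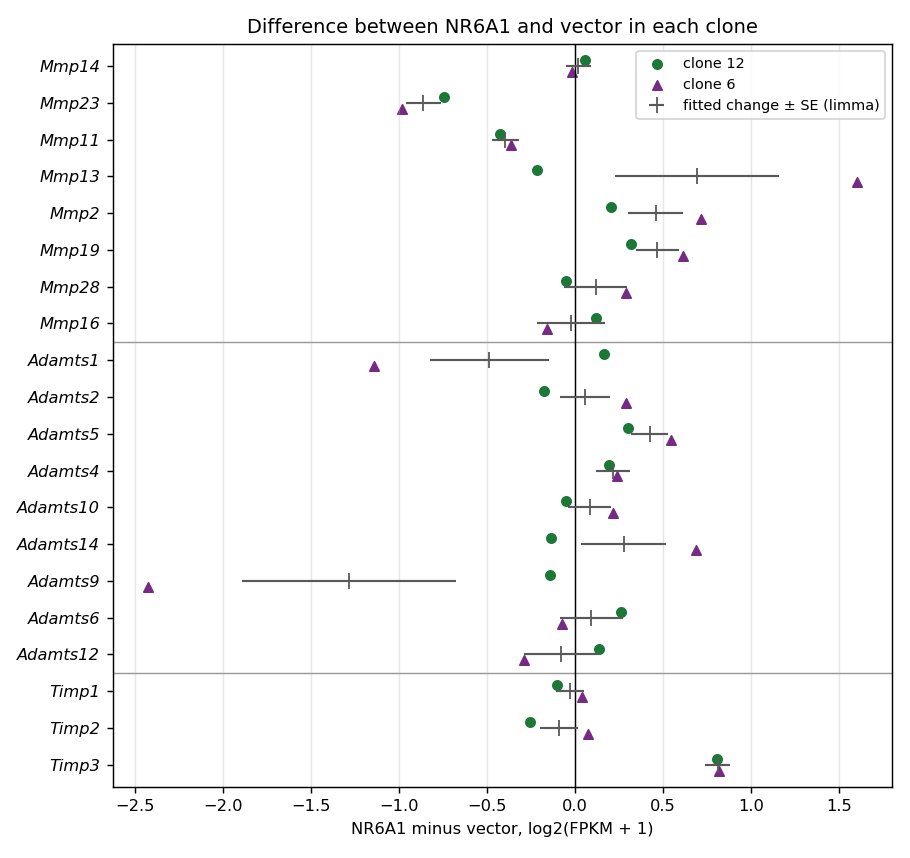
NR6A1 minus vector in log2(FPKM + 1) for the 20 members tested, circles for clone 12 and triangles for clone 6, with the limma estimate and its SE. For Timp3 the clones coincide at 0.80 and 0.81, whereas Mmp13 (-0.22 and 1.60), Adamts1 (0.17 and -1.14) and Adamts9 (-0.14 and -2.43) are apart.

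In 4 members the clone 6 libraries differed by more than 2-fold while the clone 12 values lay close together or near the floor. Mmp13 was 3.25-fold higher with NR6A1 in clone 6, and in clone 12 it was at 0.847 times the vector level. Adamts1 was at 15.8 and 18.2 FPKM in the NR6A1 libraries of clone 12 and clone 6, against 14.0 and 41.4 FPKM in the vector libraries. The vector library of clone 6 was thus the 1 high value of Adamts1. Adamts9 was at 0.0333 and 0.745 FPKM with NR6A1, against 0.142 and 8.39 FPKM with vector, so it was lower with NR6A1 in both clones but at a readable level only in clone 6. Adamts14 was at 4.24 and 2.62 FPKM with NR6A1, against 4.76 and 1.252 FPKM with vector. The difference between the clones' responses could not be tested, since 4 libraries leave no residual degree of freedom for it. With the clones' changes this far apart, the fitted log2 changes were 0.69 ± 0.47 (SE) for Mmp13, -0.49 ± 0.34 for Adamts1, -1.29 ± 0.61 for Adamts9 and 0.27 ± 0.24 for Adamts14, each with a 95% interval that spans 0. The Adamts9 estimate was -2.09 with a pseudocount of 0.1 and -0.63 with one of 5. The 5 osteoblast markers summed to 701 and 1715 FPKM in the NR6A1 libraries of clone 12 and clone 6, against 541 and 2255 FPKM in the vector libraries. Col1a1 made up most of that sum, at 693 and 1422 FPKM with NR6A1, against 522 and 1547 FPKM with vector. Of these markers Sp7 was at 0.294 and 50.6 FPKM with NR6A1, against 0.459 and 120 FPKM with vector, and Ibsp was listed at 0 in both clone 12 libraries. Alpl, the alkaline phosphatase gene, was at 6.85 and 228 FPKM with NR6A1, against 18.2 and 509 FPKM with vector, and was called lower without short RNA genes (limma adjusted p = 0.0132). Their part in the values of these 4 genes was not tested.

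The remaining members went in opposite directions in the clones. Adamts2 was at 9.19 and 14.5 FPKM with NR6A1 in clone 12 and clone 6, against 10.5 and 11.6 FPKM with vector. Adamts10 stayed between 4.92 and 5.88 FPKM over all 4 libraries. Mmp28 was at 1.83 and 1.80 FPKM with NR6A1, against 1.94 and 1.29 FPKM with vector; its exons overlap those of 1700020L24Rik on the opposite strand, at 1.42 to 2.86 FPKM. Adamts6 was at 1.55 and 1.88 FPKM with NR6A1, against 1.13 and 2.03 FPKM with vector. Adamts12 was at 0.562 and 1.86 FPKM with NR6A1, against 0.421 and 2.50 FPKM with vector.

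The second comparison asked how the genes differ between the lines, and here the differences were larger. Of the 20 members, 8 passed the threshold for clone 12 against clone 6 (limma adjusted p under 0.05), beside 21.9% of all genes tested. In clone 12, Mmp2, Mmp16 and Timp1 were higher, 3 members beside 11.5% of genes, and Mmp14, Mmp23, Timp3, Adamts4 and Adamts12 were lower, 5 members beside 10.5%. Mmp16 and Adamts12 reached the mean of 1 FPKM only through the clone where they were high. In the other clone they averaged 0.427 FPKM (Mmp16, clone 6) and 0.492 FPKM (Adamts12, clone 12). The filter thus favoured a clone difference in these genes. Both clone 12 libraries were above both clone 6 libraries for 6 members (37.7% of genes) and below them for 8 (30.3% of genes). The median size of the log2 difference was 0.63 between clones and 0.24 between viruses for the members, beside 0.22 and 0.10 over all genes tested. The signed median was -0.26 for the members and 0.04 for all genes.

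Among the lower genes Mmp14 was at 0.430 and 0.408 times its clone 6 level in the NR6A1 and vector libraries (log2 difference -1.24 ± 0.07 SE, limma adjusted p = 0.0109). Mmp23 was at 0.300 and 0.264 times (-1.71 ± 0.10, adjusted p = 0.0107). Timp3 was at 0.672 and 0.675 times (-0.56 ± 0.07, adjusted p = 0.0231). Without the virus term the calls of Mmp23 (adjusted p = 0.0630) and Timp3 (0.359) were lost. For these 3 genes the ratio between the clones was thus close with either virus. Adamts12 was at 0.303 and 0.168 times (-1.09 ± 0.21, adjusted p = 0.0407), and with quantile scaling its adjusted p was 0.0504. Adamts4 was at 0.588 and 0.602 times (-0.64 ± 0.10, adjusted p = 0.0287). Some members share exon bases with genes on the opposite strand, and the strand setting of the counting is not given in the sources used here, so reads of such pairs may not be told apart.

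Among the higher genes Timp1 was 1.86-fold and 2.06-fold above its clone 6 level in the NR6A1 and vector libraries (log2 difference 0.96 ± 0.08 SE, limma adjusted p = 0.0156). Mmp2 was 2.35-fold and 3.72-fold higher (1.37 ± 0.16, adjusted p = 0.0215). Mmp16, which like Mmp14 activates the MMP2 precursor, was at 2.40 FPKM in clone 12 and 0.347 FPKM in clone 6 with NR6A1, and at 2.14 and 0.507 FPKM with vector (1.198 ± 0.19, adjusted p = 0.0318). Mmp2 and Mmp16 were thus higher, and Mmp14 lower, in the same clone. Adamts14 (0.94 ± 0.24, adjusted p = 0.0672) and Adamts9 (-1.90 ± 0.61, adjusted p = 0.0994) missed the threshold over all genes and passed without short RNA genes (0.0282 and 0.0441). Adamts9 reached the filter only through the vector library of clone 6, at 8.39 FPKM.

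**Figure D5:**
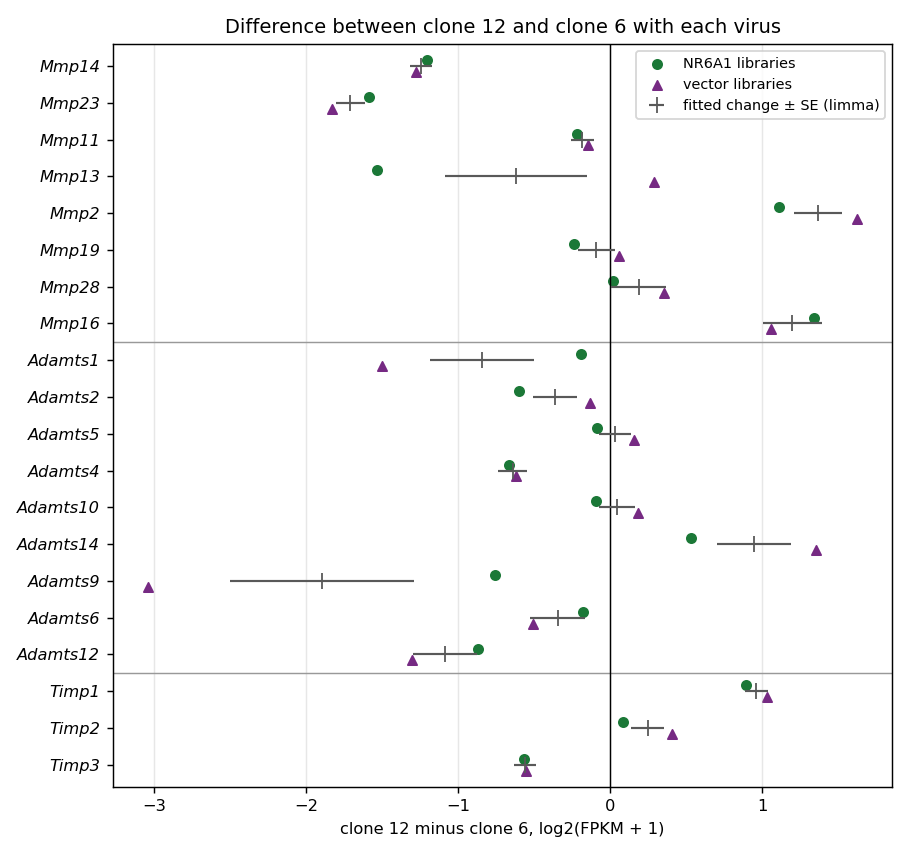
Clone 12 minus clone 6 in log2(FPKM + 1) for the 20 members tested, circles for the NR6A1 libraries and triangles for the vector libraries, with the limma estimate and its SE. Mmp14 (-1.21 and -1.28), Timp3 (-0.57 and -0.56) and Timp1 (0.89 and 1.03) keep nearly the same gap with either virus, while Mmp13 (-1.53 and 0.29) and Adamts1 (-0.19 and -1.50) do not.

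The clones also differ in osteoblast markers, which summed to 701 (NR6A1) and 541 (vector) FPKM in clone 12 and to 1715 (NR6A1) and 2255 (vector) FPKM in clone 6. All 5 of these markers were tested and all 5 were called lower in clone 12. Macrophage and blood markers summed to 8.59 to 10.7 FPKM in clone 12 and to 8.13 to 8.57 FPKM in clone 6, with 4 of the 8 at or under 0.1 FPKM throughout. The part of these differences in the clone differences of the proteases was not tested. With 1 library left out, in fits with no virus term, members called were 0 when either clone 12 library was missing and 1 (Mmp14) when the vector library of clone 6 was. When the NR6A1 library of clone 6 was missing, 8 were called, of which Adamts1, Adamts9 and Adamts14 stood in place of Mmp23, Timp3 and Adamts4. With no filter on low values limma called no gene at all (5360 at an unadjusted p under 0.05), so the member calls rest on that filter.

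Adamts1 and Adamts5 are next to each other on chromosome 16, as are Adamts15 and Adamts8 on chromosome 9. In clone 6, Adamts1 was at 0.440 times and Adamts5 at 1.52 times the vector level with NR6A1, and in clone 12 they were at 1.13 and 1.26 times. Neither Adamts15 nor Adamts8 exceeded 0.0228 FPKM.

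Around the metalloproteinases, no gene of the accompanying lists passed for NR6A1 against vector over all genes tested. The direction counts of these lists stand beside 28.9% of all genes tested higher in both clones and 29.4% lower in both. The plasminogen system, which activates several MMP precursors, had 7 of 11 genes tested, 4 higher and 1 lower in both clones (median log2 change 0.06). S100a10 and Anxa2, the plasminogen-binding annexin pair and the most abundant of the list, had log2 changes of 0.04 and -0.17. Regulators of metalloproteinases had 6 of 7 tested genes higher and 1 lower in both clones (median 0.16). In this list Bsg, the MMP inducer basigin, had a log2 change of 0.06 and the TIMP1 receptor gene Cd63 one of 0.16. Reck, a membrane inhibitor of MMPs and the 1 lower gene, was at 2.35 and 3.18 FPKM with NR6A1, against 2.65 and 5.13 FPKM with vector.

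ADAM proteases, the membrane-bound relatives, had 7 of 11 tested, 2 higher and 2 lower in both clones (median -0.07), with Adam9 at -0.07 and Adam15 at 0.02. ADAMTS-like proteins, which lack the protease domain, had 3 of 6 tested and 2 higher in both (median 0.25), with Adamtsl5 at 0.37 and Adamtsl4 at 0.10. Other matrix proteases and their partners had 9 of 14 tested, 2 higher and 3 lower in both (median 0.09); the cysteine protease inhibitor gene Cst3 had a log2 change of -0.24 and the procollagen protease enhancer gene Pcolce one of -0.39. Matrix substrates had 14 of 20 tested, 7 higher and 1 lower in both (median 0.16). Col1a2 and Col1a1, the chains of type I collagen, had log2 changes of -0.28 and 0.14. Col3a1, which encodes type III collagen, passed without short RNA genes; it was at 90.1 and 147 FPKM with NR6A1, against 56.3 and 87.6 FPKM with vector (0.70, limma adjusted p = 0.0453). AP-1, ETS and Runx factors, known regulators of MMP promoters, had 14 of 15 tested, 4 higher and 4 lower in both (median 0.14), with Junb at -0.05 and Jund at 0.08.

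Between the clones, 2 of 7 ADAM, 2 of 3 ADAMTS-like, 5 of 7 regulator, 5 of 7 plasminogen, 5 of 9 other protease, 6 of 14 substrate and 6 of 14 factor genes passed, beside the 21.9% of all genes. Junb, at 183 FPKM in clone 12 and 86.1 FPKM in clone 6 with NR6A1, was among 5 factor genes called higher in clone 12.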

How the data were processed

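Messenger RNA of 4 libraries was measured. The authors deposited FPKM, 1 value per gene symbol and library. The submitters' processing notes name Cufflinks 1.0.3, TopHat 1.2.0 and mouse build mm9; the sources used here give neither annotation nor strand setting. The Nr6a1 value sums viral and endogenous reads. Read counts were not used here. Depth (20.4 to 24.2 M reads) was inferred from 4040 genes with 1 coding transcript length of at least 1500 bases. Depth and a length shift were picked to give the largest share of values under 10 inferred reads within 0.1 of a whole read. That share was 51.8% to 54.0%. The span covers 20% of the number line, which is not the chance level of a share made as large as possible. Depth is thus an estimate.

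The 11346 genes that averaged 1 FPKM or more were tested two-sided as log2(FPKM + 1), using limma 3.58.1 (R 4.3.3) with terms for virus and clone, a trended prior variance and Benjamini-Hochberg adjustment over all genes at 0.05. Clone is a block because each line received both viruses; the clone difference correlated between viruses with r = 0.628 across genes (0.873 without short RNA genes), a value across genes, which are not independent. Residual degrees of freedom were 1, and the prior added 2.9. The fit was tested on simulated data with the same spread for every gene. That test does not give the error rate for the unequal spreads of real genes.

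Members and lists were chosen with earlier results of these data known, as were the alternatives, among them the removal of short RNA genes by symbol. All members with a mean of at least 1 FPKM are named; of lower ones, those at 0 throughout and the 5 highest; of each accompanying list, the 2 most abundant genes and those past the threshold. Others were named after their values were seen. Some results are not reported here. Lengths came from GENCODE M21, and gene order and promoters from RefSeq GRCm38.p6; all 43 symbols matched.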

Additional observations from a re-analysis of the deposited data

Results flagged for a closer look

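Of the 20 members tested, 12 went up with NR6A1 in 1 clone and down in the other, beside 41.1% of all genes tested. With 1 library per clone and virus the difference between the clones was not tested. The log2 change in clone 12 minus that in clone 6 was -1.82 for Mmp13, 1.31 for Adamts1, -0.82 for Adamts14, -0.47 for Adamts2, 0.43 for Adamts12, -0.34 for Mmp28, 0.33 for Adamts6, -0.32 for Timp2, 0.28 for Mmp16, -0.27 for Adamts10, -0.14 for Timp1 and 0.076 for Mmp14.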

How the results depend on the processing

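For NR6A1 against vector, limma called 4 genes (962 at an unadjusted p under 0.05) and no member (6 at an unadjusted p). The gene count was 25 at a false discovery rate of 0.1, 7 with a pseudocount of 5, 2 with no filter, 51 without short RNA genes and 38 with a robust prior; members called were 2 without short RNA genes, 1 (Timp3) with the robust prior and 0 under the other settings. Without the replicate block, 4 genes and 0 members were called. With any 1 library left out, 0 genes were called (96 to 286 at an unadjusted p). For clone 12 against clone 6, 2490 genes and 8 members were called; genes were 4163 at the rate of 0.1, 1581 with no variance trend, 0 with no filter and 41 to 889 with 1 library left out, and members 6 without the virus term (1993 genes; Mmp23 and Timp3 lost), 7 with quantile scaling (Adamts12 lost), 6 with a filter at 5 FPKM (Mmp16 and Adamts12 not tested), 0 with no filter and 0 to 8 with 1 left out. With quantile and upper quartile scaling, the median of all genes lay between -0.0078 and 0.010 in both comparisons. Members that turned sign with all libraries kept were Mmp16 by virus (0.0051 with a pseudocount of 5) and Adamts5 by clone (-0.0107 with upper quartile and -0.0106 with quantile scaling). Fits with 1 library left out drop the other factor and take on the clone difference, and assume that the lone library varies like the rest; by virus they ranged over -0.35 to 1.27 for Mmp2, -0.075 to 1.46 for Mmp13, -0.62 to 0.66 for Mmp14, -0.69 to 0.65 for Mmp16, -1.78 to 0.052 for Mmp23, -0.061 to 0.30 for Mmp28, -0.55 to 0.49 for Timp1, -0.30 to 0.11 for Timp2, -1.24 to 0.26 for Adamts1, -0.24 to 0.36 for Adamts2, -0.12 to 0.55 for Adamts4, -0.16 to 0.35 for Adamts6, -2.81 to 0.23 for Adamts9, -0.0084 to 0.17 for Adamts10, -0.73 to 0.57 for Adamts12 and -0.40 to 0.95 for Adamts14, with the members' median at -0.024 to 0.178. By clone they ranged over -0.40 to 0.032 for Mmp11, -1.42 to 0.18 for Mmp13, -0.40 to 0.22 for Mmp19, -0.24 to 0.30 for Adamts5 and -0.064 to 0.15 for Adamts10. The cause was not tested. Timp3 kept its direction under every alternative by virus. Depth limits the low members: 0.1 FPKM on 2000 bases stood for 3.66 to 4.33 inferred reads.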

Other observations

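Some genes around the metalloproteinases, picked after their values were seen, differed widely in clone 6. The tenascin gene Tnc was at 24.9 and 62.6 FPKM in the NR6A1 libraries of clone 12 and clone 6, against 19.0 and 421 FPKM in the vector libraries. Thbs1, a matrix regulator of cell adhesion, was at 172 and 274 FPKM with NR6A1, against 221 and 657 FPKM with vector. Adam8, an inflammatory sheddase gene, was at 13.8 and 4.97 FPKM with NR6A1, against 9.44 and 0.826 FPKM with vector. In the chromosome 9 cluster, the genes Mmp1b, Mmp1a and Mmp27, outside the list of members, did not exceed 0.0598 FPKM in any library.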
